A study of Mus musculus with 34 samples.

Results

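E2F proteins are the transcription factors that the retinoblastoma family holds in check, and the genes described here are the 8 E2F genes (E2f1 to E2f8) and the genes of their DP partners, Tfdp1 and Tfdp2. They were chosen by name. These 10 genes were read by 21 probe sets (sets of short array probes that each report 1 transcript), of 18193 genes and 45037 probe sets on the array. All 10 genes reached a signal of 100 on 2 or more arrays, the filter that 12723 genes passed in all. The series measured total RNA from whole, unsorted mouse fetal liver, the organ where blood forms at this stage, on 34 Affymetrix arrays, and compared combined losses of the 3 retinoblastoma family genes, which are Rb1, Rbl1 (its protein is p107) and Rbl2 (p130). The tissue was untreated. The labels give embryonic day 14.5 for every array, whereas the design text lets the age start a day earlier. The groups were Rb1;p107;p130 TKO (lacking all 3 genes, 6 arrays), Rb1;p130 DKO (9 arrays), Rb1;p107 DKO (5 arrays), Rb1 KO (2 arrays), p107;p130 DKO (6 arrays), p130 KO (3 arrays), p107 KO (1 array) and wild type (2 arrays). The labels name the lost genes and give no allele, deleting Cre, strain or pooling, and whether each array is a different animal is not said. The p-values below therefore speak only of the spread among these samples, which may be technical.

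An E2F of the classical kind binds DNA as a pair with a DP protein, and a pocket protein (Rb1, p107 or p130) can cover its activation domain. E2F1, E2F2 and E2F3 are known as activators that mainly bind Rb1, and E2F4 and E2F5 as repressors that bind p107 and p130. E2F6 lacks the pocket-binding domain and works with Polycomb-type complexes, while E2F7 and E2F8 bind DNA without a DP partner and repress E2F targets, among them E2f1 itself. In mice, E2f4 is needed for normal fetal red cell formation, and combined loss of Rb1 and E2f8 in blood cells causes anaemia.

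The targeted genes followed the labels. Rb1 signal was 756.0 to 1746 on the 22 arrays labelled as lacking it, against 5208 to 9085 on the 12 arrays that carry it. Rbl1 signal was 43.9 to 139.4 on 18 arrays labelled as lacking p107, against 1185 to 2713 on 16 carrying it, and Rbl2 signal was 105.5 to 265.4 on 24 arrays labelled as lacking p130, against 246.2 to 481.3 on 10 carrying it, a small overlap. Liver and red cell markers were high on every array, with Alb at 25679 or more, Afp at 30170 or more and Slc4a1 (the red cell anion exchanger) at 25484 or more. The single-gene probe set of Hba-a1, an adult alpha globin, stayed at 99.6 or less, under the filter. Probe sets that match several genes were left out, so this value does not give the level of alpha globin RNA. Median signals were 80.6 to 115.9 over the arrays. The arrays fell into 3 array groups of 15, 10 and 9, found by clustering without genotype and not recorded as batches, which took up 87.7% of the first principal component. They were uneven over genotypes: array group 2 held 4 of 5 Rb1;p107 DKO arrays and none of the Rb1;p130 DKO, Rb1 KO or p130 KO arrays.

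RefSeq promoter windows (GRCm38.p6, 250 bases before to 50 after a transcript start) were found for 8 of the 10 genes, in 12 windows; E2f4 and E2f5 had none. The 250 bases before the start are shown for the 3 genes that rose with Rb1 loss (E2f1, E2f7 and E2f8) and for E2f3. E2f3 was not called, and the E2f3 window shown holds both kinds of word described below. Each runs 5′ to 3′ on the gene's own strand, and capitals mark the words found on either strand. The E2F words were TTTCCCG or TTTCGCG or TTTGCCG or TTTGGCG, and the word of the cell-cycle homology region (CHR), a site bound by the DREAM complex of pocket proteins and E2Fs, was TTTGAA. The windows are E2f1 (chr2:154569427-154569676, minus strand), E2f7 (chr10:110745189-110745438, plus strand), E2f8 (chr7:48881597-48881846, minus strand) and E2f3 (chr13:29986064-29986313, minus strand).
E2f1: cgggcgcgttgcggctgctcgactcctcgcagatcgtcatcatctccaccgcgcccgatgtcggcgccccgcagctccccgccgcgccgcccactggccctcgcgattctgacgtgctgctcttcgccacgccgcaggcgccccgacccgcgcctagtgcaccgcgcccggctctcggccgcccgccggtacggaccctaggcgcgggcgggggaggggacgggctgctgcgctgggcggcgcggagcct
E2f7: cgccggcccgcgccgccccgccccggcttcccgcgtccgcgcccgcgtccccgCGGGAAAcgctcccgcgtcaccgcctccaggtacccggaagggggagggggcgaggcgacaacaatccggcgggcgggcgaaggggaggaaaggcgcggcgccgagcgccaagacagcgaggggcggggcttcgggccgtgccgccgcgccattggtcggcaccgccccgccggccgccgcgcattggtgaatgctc
E2f8: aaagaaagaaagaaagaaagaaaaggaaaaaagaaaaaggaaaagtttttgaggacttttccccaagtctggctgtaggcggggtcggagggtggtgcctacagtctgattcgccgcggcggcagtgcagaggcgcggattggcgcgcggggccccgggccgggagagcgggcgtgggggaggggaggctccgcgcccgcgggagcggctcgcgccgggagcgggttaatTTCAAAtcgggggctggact
E2f3: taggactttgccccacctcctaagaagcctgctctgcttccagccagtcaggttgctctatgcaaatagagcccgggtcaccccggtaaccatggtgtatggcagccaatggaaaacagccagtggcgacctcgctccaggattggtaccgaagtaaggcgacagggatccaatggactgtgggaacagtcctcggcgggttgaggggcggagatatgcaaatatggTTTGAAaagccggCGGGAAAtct
E2f7 held 1 E2F word, 197 bases before the start, and E2f8 held the CHR word 20 bases before the start and no E2F word. The E2f1 window held neither and lies inside the listed span of the gene, as the E2f8 window does. No other window was found for E2f1 or E2f8, so sequence before the listed spans of these genes was not searched. The E2f3 window shown held an E2F word 10 bases before its start and the CHR word 23 bases before it, with a further E2F word just after the start. Another E2f3 window held neither kind of word. Over the whole windows, E2f2, Tfdp1 and Tfdp2 also held E2F words and E2f6 did not. E2f2 held the CHR word as well, in a different window from its E2F words. An E2F word was found in 6.70% and the CHR word in 17.9% of 32807 windows of this length, and these matches say nothing of binding.

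With loss of Rb1, 3 of the 10 genes rose, E2f1, E2f7 and E2f8, and none fell. The comparison was the Rb1 term of an additive fit to all 34 arrays (limma, with terms for Rb1, p107 and p130 loss). A gene was called at an adjusted p under 0.05, and all changes are differences in log2(signal + 32) with their standard errors, a scale that understates the changes of dim genes. Over all genes tested 2.26% were called in this term and 1.75% were called higher. The median change of the 10 genes was 0.10, against -0.02 over all genes tested. The called genes are the first of the activators and both atypical repressors.

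E2f1, the activator most closely tied to Rb1, had signals of 1363 to 1855 with a median of 1518 in TKO livers, and of 1250.3 to 2010 with a median of 1715 in Rb1;p130 DKO livers. The 5 Rb1;p107 DKO arrays gave 1408, 1840.3, 1950.4, 1620.3 and 1659, and the 2 Rb1 KO arrays gave 2081 and 1212. With Rb1 present, E2f1 signal was 953 to 1269 with a median of 1113 in p107;p130 DKO livers, 1208, 1131 and 1263 in p130 KO livers, 1167 in the p107 KO liver and 1443 and 1082 in wild type livers. All 22 arrays without Rb1 lay above the mean of the 12 arrays with it, and 17 lay above their highest. E2f1 rose by 0.46 ± 0.07 on the log2 scale, or 1.38-fold (limma, adjusted p = 5.96e-05). Its genotype means ordered all 4 genotypes without Rb1 above all 4 with it, and neighbours among the genotypes without Rb1 lay closer together than their SDs, as did wild type and p130 KO; the p107 KO, with 1 array, has no SD. The neighbours across that divide, TKO at 1572 ± 182 (SD, n = 6) and wild type at 1262 ± 255 (SD, n = 2), were not called as different.

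**Figure D1:**
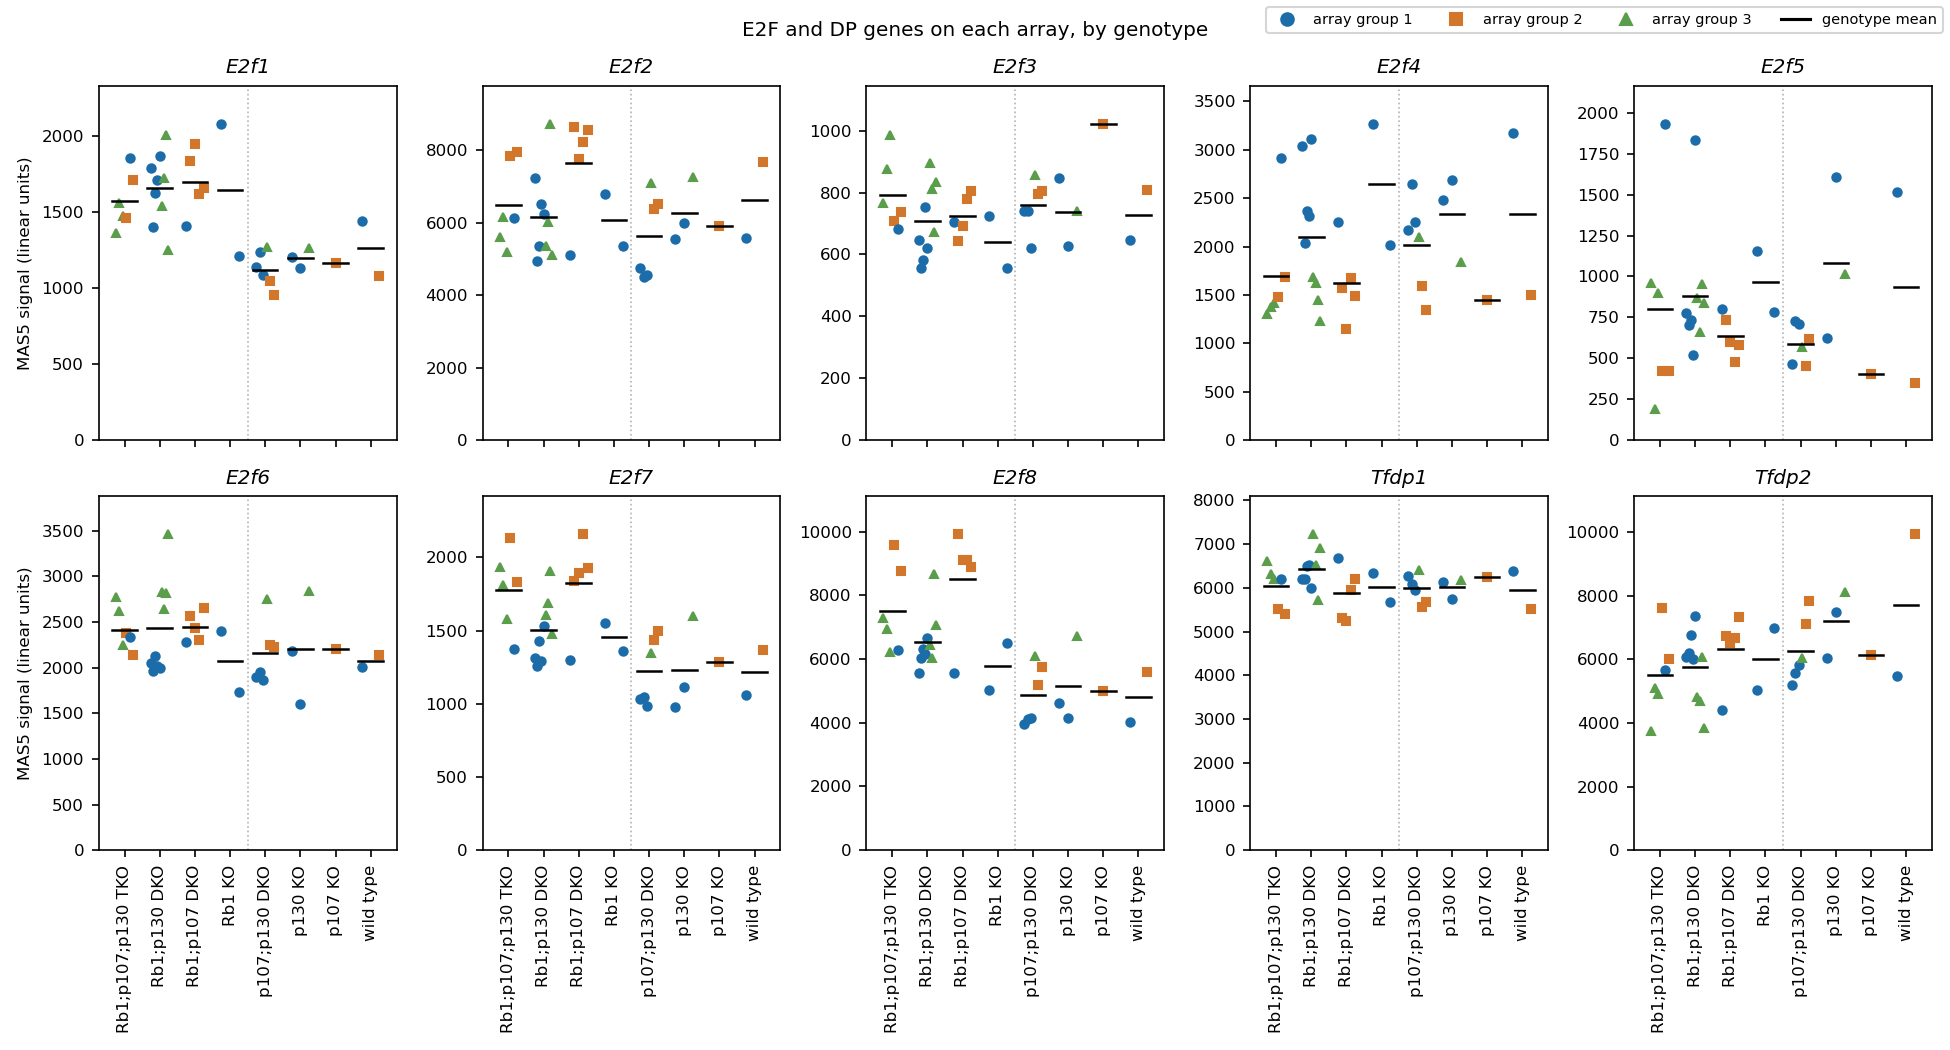
MAS5 signal (linear units) of each of the 10 genes on each of the 34 arrays, by genotype, with array groups as colours and shapes and genotype means as bars; the dotted line divides genotypes without Rb1 (left) from those with it. E2f1, E2f7 and E2f8 are higher on the left, and the arrays of array group 1 (circles) are high for E2f4 in every genotype that has them.

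E2f2 and E2f3, the other activators, were not called. E2f2 signal was 4952 to 8733 on the arrays without Rb1, against 4491 to 7692 on those with it, and the 2 sets overlapped over most of their range (0.12 ± 0.09, not called). Its highest genotype mean was that of the Rb1;p107 DKO, at 7663 ± 1474 (SD, n = 5), where 1 array gave 5101 and the other 4 gave 7763 to 8646. A second E2f2 probe set, with signals of 4591 to 7743, gave 0.01 ± 0.07 in the Rb1 term and another order. There the p130 KO mean was highest, at 6713 ± 1006 (SD, n = 3), and the Rb1;p107 DKO mean was 5835 ± 648 (SD, n = 5). E2f3 signal was 556 to 985 without Rb1, against 621 to 1022 with it (-0.07 ± 0.08, limma adjusted p = 0.845). The highest of these was the single p107 KO array, which has no replicate.

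E2f7, an atypical repressor, had signals of 1375 to 2136 with a median of 1819 in TKO livers and of 1255 to 1908 with a median of 1478 in Rb1;p130 DKO livers. The 5 Rb1;p107 DKO arrays gave 1302, 1837, 1896, 2160.4 and 1931, and the Rb1 KO arrays gave 1555 and 1364. It had 987 to 1497 with a median of 1198 in p107;p130 DKO livers, 975, 1112 and 1604 in p130 KO livers, 1287 in the p107 KO liver and 1059.6 and 1369.7 in wild type livers. Every array without Rb1 lay above the mean of those with it, while 11 of the 22 lay above their highest, a p130 KO array. E2f7 rose by 0.42 ± 0.08 (limma, adjusted p = 0.00154).

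E2f8, the other atypical repressor, had signals of 6214 to 9571 with a median of 7118 in TKO livers and of 5563 to 8657 with a median of 6327 in Rb1;p130 DKO livers. The Rb1;p107 DKO arrays gave 5560.2, 9927, 9113, 9119.6 and 8902, and the Rb1 KO arrays gave 5037 and 6503. It had 3956 to 6107 with a median of 4667 in p107;p130 DKO livers, 4609, 4142 and 6737 in p130 KO livers, 4999 in the p107 KO liver and 4022 and 5609.7 in wild type livers. Again all 22 arrays without Rb1 lay above the mean of those with it, and 10 lay above their highest. E2f8 rose by 0.54 ± 0.09, or 1.46-fold (limma, adjusted p = 2.34e-04). For both E2f7 and E2f8 the order of genotype means was Rb1;p107 DKO, TKO, Rb1;p130 DKO and Rb1 KO, then the 4 genotypes that carry Rb1. The means of the Rb1;p107 DKO and TKO were closer to each other than their SDs, at 8524 ± 1703 (SD, n = 5) and 7512 ± 1372 (SD, n = 6) for E2f8, and TKO over Rb1;p107 DKO was not called for either gene. Array groups are uneven over these genotypes. E2f8 averaged 7693 in array group 2, with 4 of the 5 Rb1;p107 DKO arrays. It averaged 5274 in array group 1, with both Rb1 KO arrays. With array group as a block, TKO over Rb1;p130 DKO for E2f8 was -0.01 in place of 0.19. A second, dimmer E2f8 probe set put the Rb1 KO highest at 1337, and the TKO lowest of the genotypes without Rb1 at 806.

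E2f4 and E2f5, the classical repressors, were not called in the Rb1 term. E2f4 signal was 1144 to 3267 on the arrays without Rb1, against 1344 to 3170.4 on those with it (-0.17 ± 0.14, limma adjusted p = 0.733). Its spread followed the array groups: it averaged 2582 ± 428 in array group 1 (SD, n = 15), 1492 ± 160.2 in array group 2 (SD, n = 10) and 1557 ± 281 in array group 3 (SD, n = 9), and the array groups held 75.9% of its variance against 24.4% for the genotypes. E2f5 was the most variable of the 10, with 190.2 to 1932 without Rb1, against 348 to 1606 with it (0.07 ± 0.21, limma adjusted p = 0.956). These E2f5 values come from its brightest probe set, on which both extremes were TKO arrays. Its other probe sets ran from 250.4 to 1184 and from 412.3 to 739.5.

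E2f6, the Polycomb-linked repressor, had signals of 1737 to 3463 without Rb1, against 1598 to 2839 with it. Its change of 0.16 ± 0.08 was not called. Of the DP partners, Tfdp1 was the steadiest of the 10 genes, at 5235 to 7230.4 without Rb1, against 5518 to 6412 with it, and with an SD of 0.11 over all arrays on the log2 scale (change 0.03 ± 0.05, limma adjusted p = 0.906). Tfdp2 had 3756 to 7617 without Rb1, against 5202 to 9938 with it, and 8 of the 22 arrays without Rb1 lay below the lowest array with it. Its change of -0.22 ± 0.10 was not called (limma, adjusted p = 0.373).

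**Figure D2:**
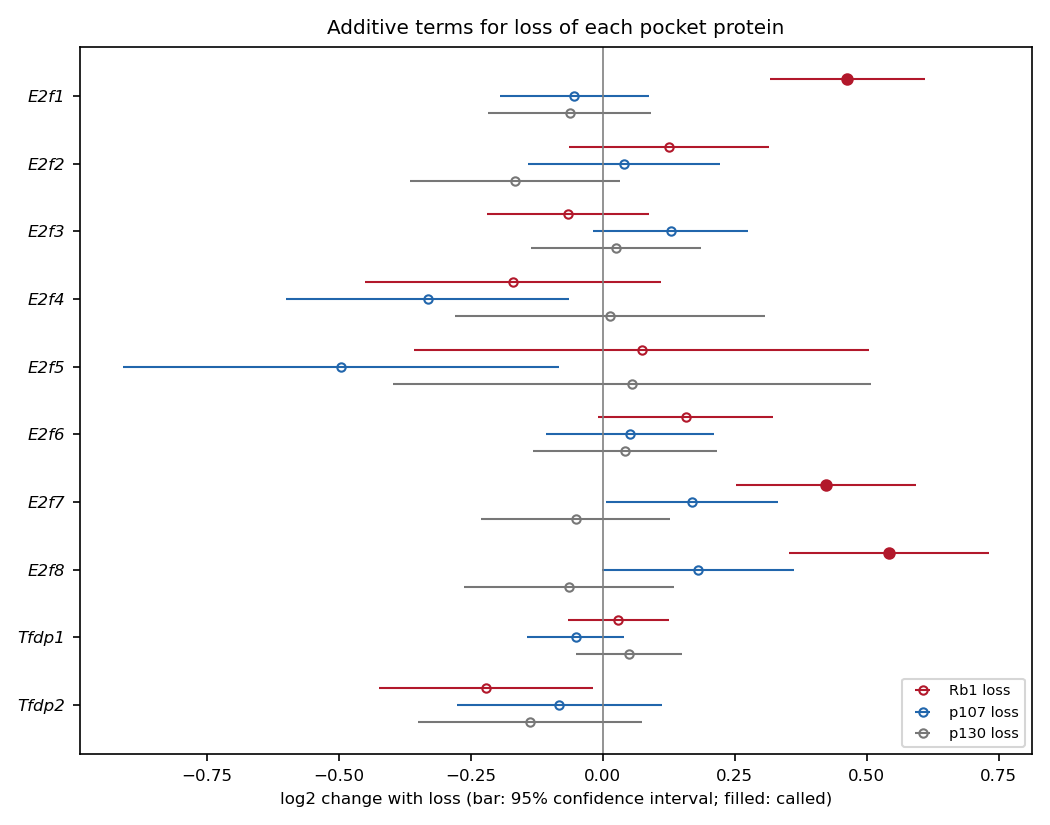
Log2 change of each gene with loss of Rb1, p107 and p130 in the additive limma fit (points, with 95% confidence intervals; filled points are called). The Rb1 terms of E2f1, E2f7 and E2f8 stand at 0.46, 0.42 and 0.54, and the intervals of the p107 terms of E2f4 and E2f5 lie below 0 without a call.

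Within the array groups the 3 called genes kept their direction. In array group 1, with 9 arrays lacking Rb1 and 6 carrying it, E2f8 signal was 5037 to 6661 without Rb1, against 3956 to 4609 with it, and E2f7 signal was 1255 to 1555, against 975 to 1112, so that neither overlapped; arrays without Rb1 were all higher there for 0.857% of genes. In array group 2, with 6 arrays lacking and 4 carrying Rb1, E2f8 signal was 8772 to 9927 without Rb1, against 4999 to 5737 with it, and E2f7 signal was 1829 to 2160.4, against 1287 to 1497. Arrays without Rb1 all lay above those with it in both array groups for 0.55% of genes tested, E2f7 and E2f8 among them. E2f1 and E2f2 also did not overlap in array group 2, where E2f2 signal was 7763 to 8646 without Rb1, against 5900.1 to 7692 with it; there 2.4% of genes were all higher. Array group 3 holds only 2 arrays with Rb1, a p107;p130 DKO and a p130 KO, and its differences were smaller, at 0.27 for E2f1, 0.21 for E2f7 and 0.10 for E2f8. E2f2 went the other way there (-0.28, against 0.15 and 0.38 in array groups 1 and 2). E2f4 signal in array group 3 was 1233 to 1684 without Rb1, against 1835 and 2101 on the 2 arrays with it, without overlap, as for 3.65% of genes that were all lower there; in array groups 1 and 2 its ranges overlapped. With array group as a block, the Rb1 term was 0.47 ± 0.07 for E2f1, 0.39 ± 0.05 for E2f7 and 0.52 ± 0.06 for E2f8 (limma, adjusted p = 4.17e-05, 2.28e-06 and 3.16e-07), the other 7 genes were again not called, and 4.4% of all genes were called.

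**Figure D3:**
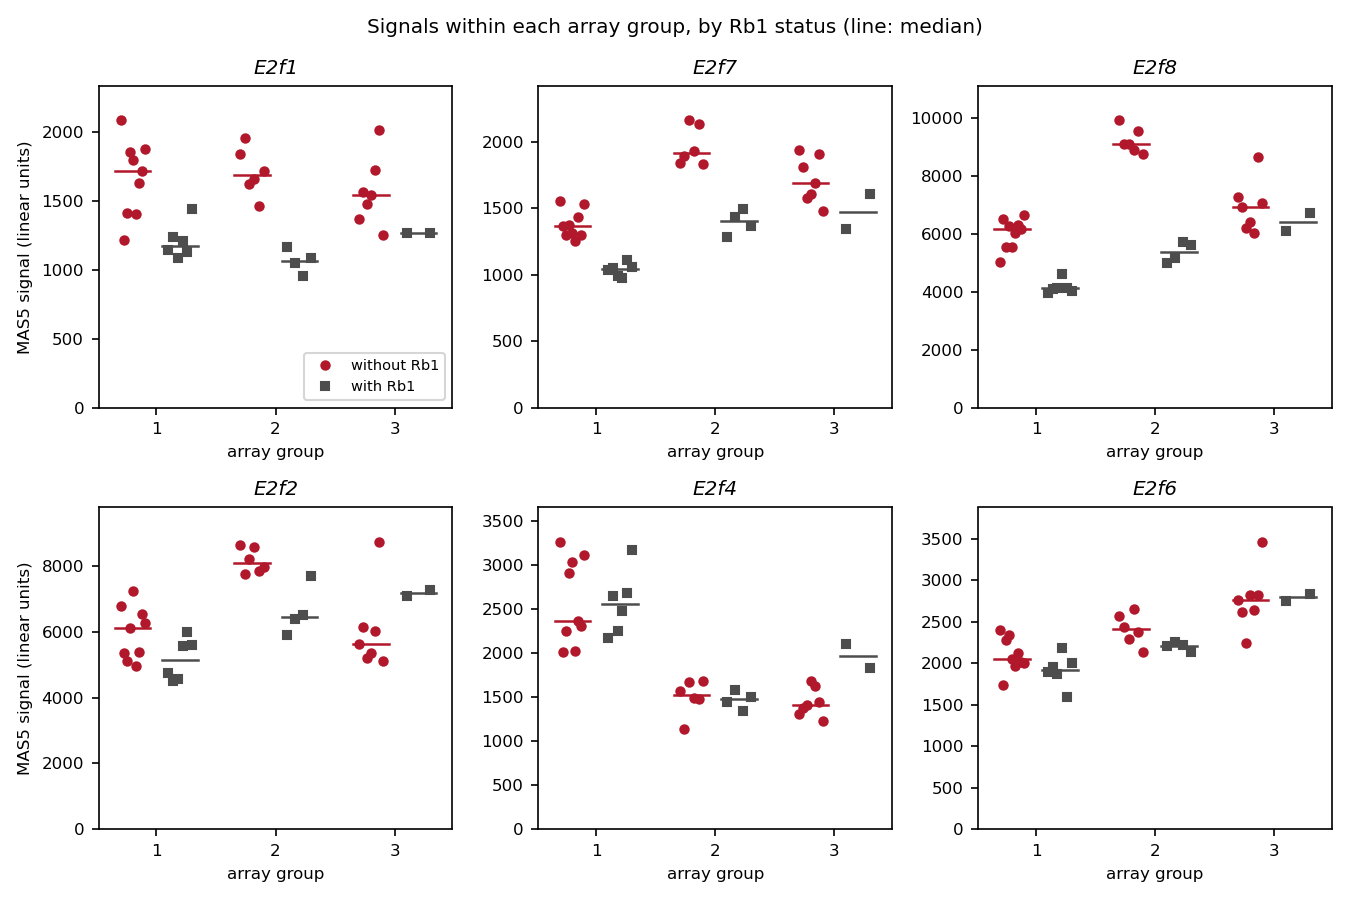
MAS5 signal (linear units) of 6 of the genes within each array group, with arrays without Rb1 (circles) left of arrays with Rb1 (squares) and medians as lines. E2f7 and E2f8 separate completely in array groups 1 and 2, and E2f4 lies lower without Rb1 in array group 3, where 2 arrays carry Rb1.

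Several genes had more than 1 probe set, and these were tested separately over the 28005 probe sets that passed the filter. Both bright probe sets of E2f1 were called in the Rb1 term (the dimmer of them at 0.50 ± 0.08, limma adjusted p = 2.58e-04), while the remaining one, at a signal of 129.1 or less on every array, gave 0.03 ± 0.20. The second probe set of E2f8, with signals of 246.9 to 1740.2, had the same size of change as the first, 0.54, with a larger error of 0.24, and was not called (limma, adjusted p = 0.395). The 4 probe sets of Tfdp2 also differed: the one with signals of 2150.1 to 8145 gave -0.40 ± 0.13 (limma, adjusted p = 0.136) and the other 3 gave -0.22, -0.09 and -0.02. The 2 probe sets of E2f3 differed in sign (-0.07 and 0.07) with neither called. In all, 4 of the 21 probe sets were called, from E2f1 (both bright ones), E2f7 and E2f8, against 1.73% of all probe sets tested.

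**Figure D4:**
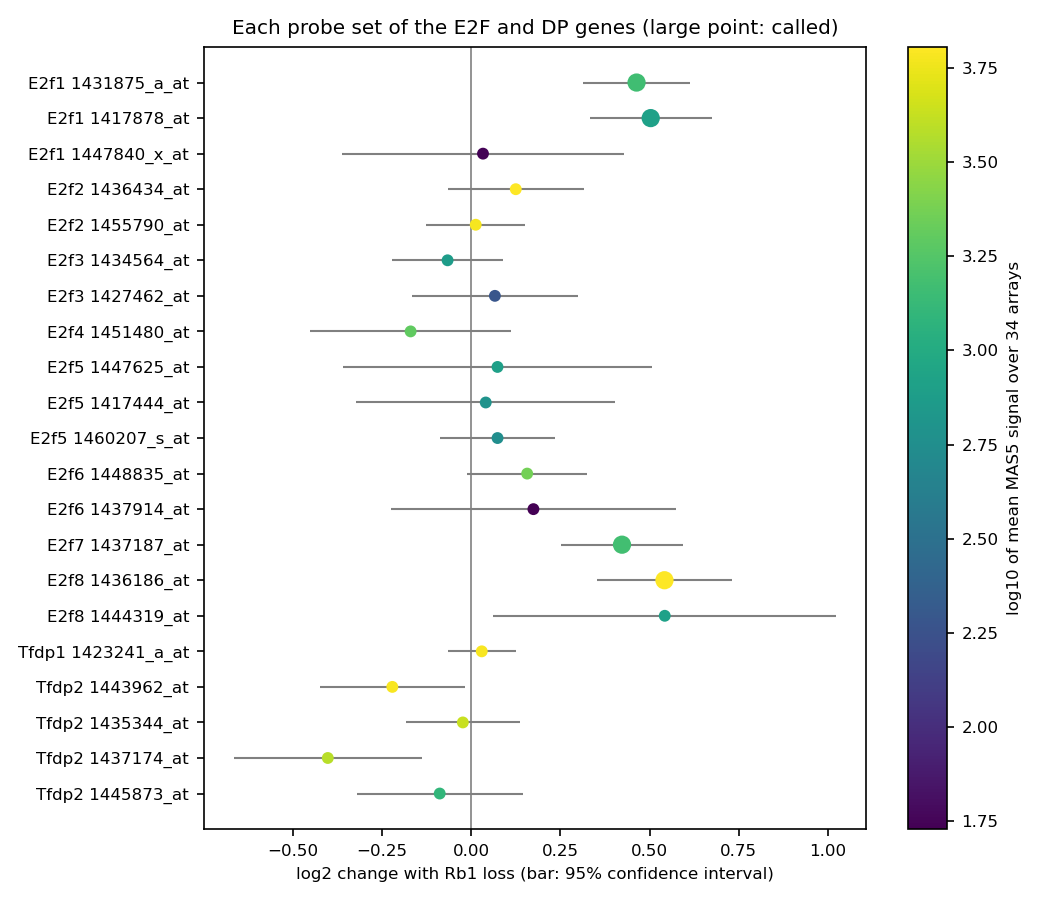
Log2 change with Rb1 loss (points, with 95% confidence intervals) for each of the 21 probe sets. Large points are called, and colour gives the mean signal over the arrays. The called probe sets belong to E2f1, E2f7 and E2f8, and the 4 probe sets of Tfdp2 run from -0.40 to -0.02.

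Loss of Rb1 was also compared in 3 pairs of genotypes that share no arrays. In TKO over p107;p130 DKO livers, 1 of the 10 genes was called, E2f8 at 0.62 ± 0.15 (limma, adjusted p = 0.0494), against 0.377% of all genes called and 0.299% called higher. E2f1 gave 0.47 ± 0.12 (limma, adjusted p = 0.0838) and E2f7 gave 0.53 ± 0.14 (limma, adjusted p = 0.0909). Tested over all probe sets, the dimmer bright probe set of E2f1 was called at 0.69 ± 0.13 (limma, adjusted p = 0.0107). The main probe set of E2f1 was not called there (limma, adjusted p = 0.127). The main probe set of E2f8 was then not called (limma, adjusted p = 0.0737), and its second probe set gave 0.25 ± 0.37. The TKO and p107;p130 DKO arrays did not overlap for E2f1 and E2f8, as for 0.55% of genes in that direction, and 5 of 6 TKO arrays lay above the highest p107;p130 DKO array for E2f7. The call of E2f8 lies at the threshold: leaving out any 1 of 8 of the 12 arrays compared ended it, with adjusted p between 0.0727 and 0.151. The arrays with Xist signal, a female mark, numbered 4 of 6 in the TKO and 1 of 6 in the p107;p130 DKO, and with Xist as a block E2f8 gave 0.59 ± 0.16 (limma, adjusted p = 0.140). With array group as a block, E2f7 at 0.41 ± 0.08 and E2f8 at 0.52 ± 0.10 were called (limma, adjusted p = 0.00638 and 0.00244), with 0.865% of all genes.

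In Rb1;p130 DKO over p130 KO livers none of the 10 genes was called, against 0.118% of all genes. E2f1 gave 0.44 ± 0.14 (limma, adjusted p = 0.479), and 8 of 9 Rb1;p130 DKO arrays lay above the highest of the 3 p130 KO arrays. E2f7 gave 0.30 ± 0.16 and E2f8 0.36 ± 0.17, with the 9 arrays all above the p130 KO mean. In Rb1 KO over wild type livers, with 2 arrays each, none was called, against 0.00786% of all genes, and E2f1 gave 0.34 ± 0.21, E2f7 0.27 ± 0.24 and E2f8 0.27 ± 0.26. Both Rb1 KO arrays lie in array group 1, whereas array groups 1 and 2 hold 1 wild type array each, and with array group as a block E2f1 gave 0.30 ± 0.22, E2f7 0.52 ± 0.14 (limma, adjusted p = 0.53) and E2f8 0.54 ± 0.17 (limma, adjusted p = 0.719), with none called. The difference between the effects of Rb1 loss without p107 and with it, both in livers lacking p130, was not called for any of the 10 genes or for any gene tested (0%), and 209 genes (1.64%) had an unadjusted p under 0.05. Its 95% interval was -0.35 to 0.41 for E2f1, -0.20 to 0.66 for E2f7 and -0.20 to 0.72 for E2f8.

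**Figure D5:**
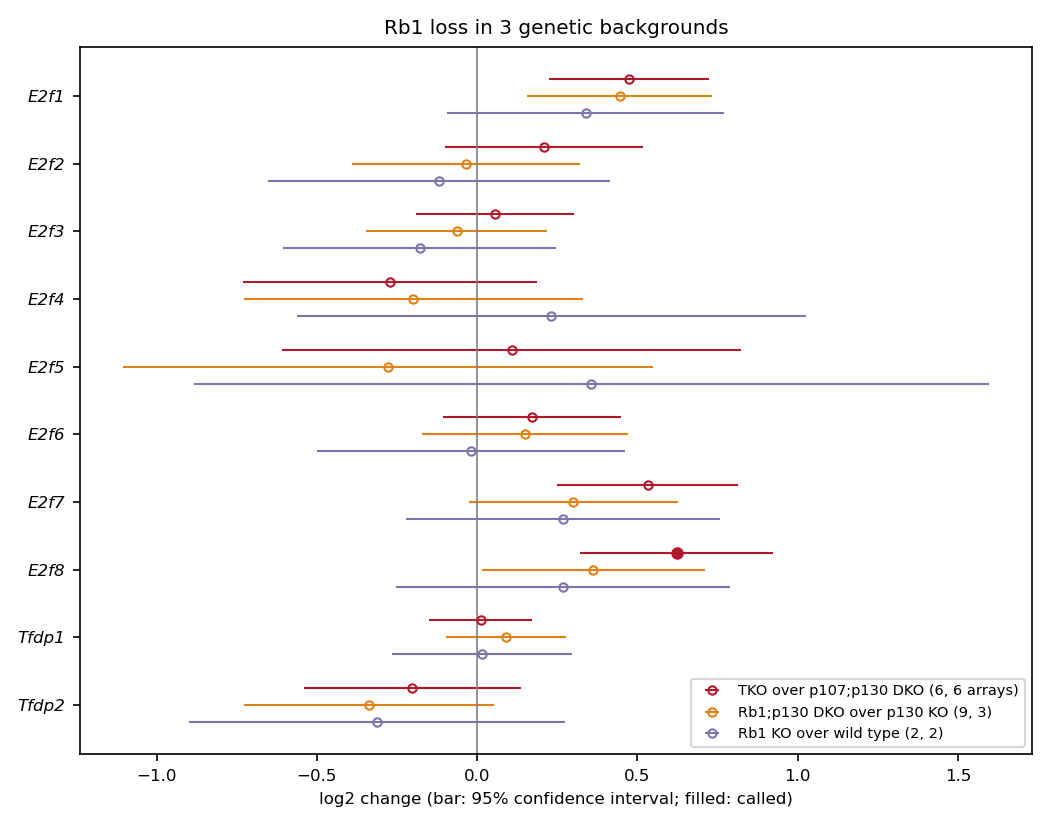
Log2 change of each gene with Rb1 loss in 3 pairs of genotypes that share no arrays (points, with 95% confidence intervals; filled points are called). The points of E2f1, E2f7 and E2f8 lie above 0 in every pair, with E2f8 called in TKO over p107;p130 DKO at 0.62.

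Loss of p107 or p130 called none of the 10 genes, against 1.14% of all genes for p107 and 0.0157% for p130. With p107 loss, E2f4 gave -0.33 ± 0.13 (limma, adjusted p = 0.198) and E2f5 gave -0.50 ± 0.20 (limma, adjusted p = 0.210). The E2f5 value rests on 1 probe set, as the other 2 gave -0.06 ± 0.17 and -0.004 ± 0.077. E2f7 gave 0.17 ± 0.08 and E2f8 0.18 ± 0.09, and the second probe set of E2f8 gave -0.11 ± 0.23. The array group moved with these values: with it as a block E2f4 gave -0.07 ± 0.09, E2f5 -0.21 ± 0.22, E2f7 -0.003 ± 0.056 and E2f8 -0.03 ± 0.07, while Tfdp2 gave -0.27 ± 0.08 (limma, adjusted p = 0.122) in place of -0.08 ± 0.10. E2f1 lies 2.58 Mb from Rbl1 on chromosome 2 in the RefSeq table, and its p107 term was -0.05 ± 0.07. With p130 loss the 10 changes ran from -0.17 for E2f2 to 0.06 for E2f5.

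The remaining comparisons called none of the 10 genes either: TKO over Rb1;p130 DKO (0.0236% of all genes called), TKO over Rb1;p107 DKO (0.00786%), p107;p130 DKO over p130 KO (0.0236%) and TKO over wild type (0.0786%). Several of these share arrays with each other and with the pairs above. In TKO over wild type, E2f8 gave 0.64 ± 0.21 (limma, adjusted p = 0.582) and E2f7 gave 0.54 ± 0.20 (limma, adjusted p = 0.788), with no overlap between the 6 TKO and 2 wild type arrays, as for 3.7% of genes in that direction. In p107;p130 DKO over p130 KO, E2f5 had the largest difference of the 10, -0.77 ± 0.43, with all 6 p107;p130 DKO arrays below the p130 KO mean, while its other 2 probe sets gave 0.05 ± 0.36 and -0.03 ± 0.17.

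E2f7 and E2f8 varied together over the 34 arrays, with a Pearson r of 0.908, and 0.851 with the array group means removed. E2f1 had r = 0.519 with E2f7 and 0.542 with E2f8, and 0.772 and 0.723 with the array group means removed. Tfdp1 and Tfdp2 ran opposite ways (r = -0.670, and -0.461 with the means removed). The arrays share genotype and array group, so these are descriptions. Over the arrays as they stand, the 3 genes most like E2f8 were Rfwd3 (0.933), Asf1b (0.923) and Oser1 (0.913), and those most like E2f7 were Rfwd3 (0.902), Lancl2 (0.898) and Brca1 (0.894). Those most like E2f1 were Mid1ip1 (0.869), Memo1 (0.853) and Ube2z (0.809), and those most like E2f2 were Rab43 (0.875), Tprgl (0.866) and Fam53b (0.850). Shc1 (0.916), Raver1 (0.900) and Scaf1 (0.897) were most like E2f4, but only at 0.62, 0.59 and 0.64 with the array group means removed. Ncoa4 (0.904), a ferritin receptor used in red cell iron handling, Nt5c3 (0.874) and Tent5c (0.863) were most like Tfdp2. With the array group means removed the order changed: Nudt4 (0.948), Plek2 (0.933) and Dusp1 (0.908) were then most like E2f8, and Cdkn2c (0.907), Dusp1 (0.890) and Plekhf2 (0.885) most like E2f7.

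The genotypes held 62.2% of the variance of E2f1 and the array groups 0.769%. For E2f8 these shares were 60.6% and 39.1%, and for E2f7 52.6% and 51.8%; the shares overlap because genotypes and array groups are not balanced. For each of the other 7 genes the array groups held more of the variance than the genotypes, with E2f6 at 64.1% against 16.0% and Tfdp1 at 46.8% against 19.5%. Genotypes outnumber array groups, and a finer split takes up more variance by itself. The shares of genotypes and array groups are therefore not on the same footing.

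Of 44 tested genes on a list of E2F targets, 7 rose with Rb1 loss and none fell, with a median change of 0.10. Over all genes tested, 1.75% were called higher in this term and 0.511% lower. The 7 are named here. These targets were Zfp367, an E2F-controlled zinc finger gene (1.10 ± 0.11, limma adjusted p = 6.44e-09), Slbp, the histone mRNA binding protein (0.26 ± 0.05), Cdk1, the mitotic kinase (0.22 ± 0.04), Brca1, a DNA repair gene (0.42 ± 0.09), and Ccna2, Prim1 and Uhrf1. With p107 loss 2 of the 44 fell and none rose: Ccne1, cyclin E1 (-0.39 ± 0.06, limma adjusted p = 9.05e-05), and Mybl2, a transcription factor that drives mitotic genes (-0.39 ± 0.08, limma adjusted p = 0.00802). Over all genes tested, 0.723% were called lower with p107 loss. In TKO over p107;p130 DKO livers, Zfp367 was the 1 target called (1.17 ± 0.18, limma adjusted p = 2.54e-04), against 0.299% of all genes called higher.

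Of 26 tested partners and regulators of the E2Fs, 5 rose with Rb1 loss and 1, Rb1 itself, fell, with a median of 0.01. The shares over all genes were 1.75% higher and 0.511% lower. Those that rose were the cyclin-dependent kinase inhibitors Cdkn1a (1.19 ± 0.12, limma adjusted p = 7.32e-09), Cdkn2c (0.69 ± 0.08), Cdkn2d (0.52 ± 0.09) and Cdkn1b, and the kinase Cdk2. With p107 loss and with p130 loss the single call in this list was the targeted gene, Rbl1 at -4.00 ± 0.12 and Rbl2 at -0.85 ± 0.12. No tested subunit of the MuvB core of DREAM on the list (Lin9, Lin37, Lin52, Lin54, Rbbp4) was called in the Rb1 term.

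Because the liver was unsorted, fewer cells of a type and less RNA per cell cannot be told apart. Of 11 tested red cell markers, 2 fell with Rb1 loss, Epor, the erythropoietin receptor (-0.83 ± 0.10, limma adjusted p = 1.55e-07), and Bpgm, a late red cell enzyme (-0.52 ± 0.09, limma adjusted p = 1.92e-04), with a median of 0.07 over the list. Among all genes tested, 0.511% were called lower with Rb1 loss. The summed signal of the red cell markers was 147778 to 226065 in TKO livers, against 144089 to 203464 in p107;p130 DKO livers and 158357 to 227799 in wild type livers, so these ranges overlap. None of the markers of hepatocytes (8 tested), macrophages (7), megakaryocytes (6), neutrophils (7), stem cells (7) or endothelial and mesenchymal cells (7) was called in the Rb1 term. With p107 loss Epor also fell (-0.43 ± 0.09, limma adjusted p = 0.0119) and Pdgfrb, a receptor of mesenchymal cells, rose (0.67 ± 0.11, limma adjusted p = 8.69e-04), with no other marker called. The part of cell make-up in the changes of E2f1, E2f7 and E2f8 with Rb1 loss, and of Ccne1 and Mybl2 with p107 loss, was not tested.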

How the data were processed

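Total RNA of untreated, unsorted fetal liver was labelled with biotin and read on one-colour Affymetrix arrays, 1 array a sample. The deposited values are intensity, a linear signal per probe set, which the authors computed by MAS5 (GCOS 1.4), per the submitters' processing notes. The deposited 2% trimmed means ran from 495.4 to 497.7. Gene symbols came from the RefSeq table (GRCm38.p6): 34945 of 45037 probe sets matched 1 symbol, 932 several (left out) and 9160 none.

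Each array was scaled to a trimmed mean (2%) of 500, and signals were taken as log2(signal + 32). Each gene was read from its brightest probe set. limma 3.58.1 in R 4.3.3 (lmFit, contrasts.fit, eBayes with trend) was fitted to all 34 arrays, once with additive terms for the 3 losses and once with a mean per genotype, and p-values were adjusted by Benjamini-Hochberg over 12723 genes. Precision is limited by the number of arrays. The p107 KO has 1 array and no pairwise test.

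The 3 array groups came from Ward clustering of how the 2 brightest probe sets of each of 2997 genes differed in log2 signal. Named genes were the 10 genes, up to 4 called genes of each list by their statistic in the Rb1 term, and the 3 genes most correlated with each of E2f1, E2f2, E2f4, E2f7, E2f8 and Tfdp2; further called list genes were named after their values were seen. The members and lists were chosen with earlier results of these data known. The fit was tested on simulated data.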

Additional observations from a re-analysis of the deposited data

Results flagged for a closer look

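In each group of 4 to 10 arrays, the highest or lowest array of each gene was set against the others by Dixon's test, in 40 sets of arrays, of which chance marks about 1 in 20. Array 1 of the Rb1;p107 DKO stood low for 3 genes: E2f8 at 5560.2 (the other 4 arrays 8902 to 9927), E2f2 at 5101 (the others 7763 to 8646) and Tfdp2 at 4397 (the others 6504 to 7317). It is the only Rb1;p107 DKO array in array group 1. Array 5 of the TKO stood high for E2f4 at 2917 (the other 5 arrays 1304 to 1685), and it is the only TKO array in array group 1. Array 5 of the Rb1;p130 DKO stood high for E2f5 at 1836 (the other 8 arrays 523 to 957). On the other E2f5 probe sets the highest Rb1;p130 DKO signals were 847.3 and 739.5. The part of array group in these values was not tested.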

How the results depend on the processing

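The calls of E2f1, E2f7 and E2f8 in the Rb1 term held in 45 of 45 alternatives, which ranged over 0.44 to 0.49 for E2f1, 0.35 to 0.47 for E2f7 and 0.45 to 0.60 for E2f8. The E2f5 change of 0.07 ran from -0.069 to 0.185 when 1 array was left out, reversing to -0.069 without wild type array 2 and to -0.022 without TKO array 5, and was never called. In TKO over p107;p130 DKO, 1 gene was called. None (0) was called with a pseudocount of 100, no filter on low signal, eBayes without trend, only the arrays of the groups compared, or Xist as a block. With the mean of all probe sets (E2f1 and E2f8), the replicate block (E2f7 and E2f8), the array group block (E2f7 and E2f8), or without arrays 8 and 9 of the Rb1;p130 DKO (E2f1 and E2f8), 2 were called. Leaving out 1 array gave 0 to 2: the count was 0 without TKO array 1, 2, 4 or 6 or p107;p130 DKO array 1, 2, 3 or 5, and 2 without TKO array 5. The causes were not tested. The Xist block and the omission of arrays 8 and 9 were chosen after seeing the data.

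Replicate numbers were not taken to pair the arrays, since the labels give the number no meaning. Deviations of same-numbered arrays correlated at a mean of 0.06 (-0.38 to 0.50 over 67 pairs, 27 of them over 0.1). For other-numbered arrays the mean was -0.011, with 76 of 380 pairs over 0.1, a smaller share. Of 33 arrays, 9 correlated best with their own number. Whether same-numbered arrays share a source was not tested. With the replicate block, the p107 term called 1 gene in place of 0, E2f4 at -0.45 ± 0.12 (limma, adjusted p = 0.0496). Counts over all genes moved by over 1.5 times with the array group block (Rb1 term 560 in place of 288, p107 term 84 in place of 145, TKO over p107;p130 DKO 110 in place of 48, TKO over wild type 29 in place of 10, Rb1;p130 DKO over p130 KO 50 in place of 15, TKO over Rb1;p130 DKO 17 in place of 3, TKO over Rb1;p107 DKO and Rb1 KO over wild type 2 each in place of 1) and with the replicate block (p107 term 302, p130 term 9 in place of 2, TKO over p107;p130 DKO 80, Rb1 KO over wild type 2). TKO over p107;p130 DKO called 87 with the mean of probe sets and 31 with the Xist block, and Rb1;p130 DKO over p130 KO called 26 with quantile normalization. Fitted to the compared groups alone, the counts were 5 for Rb1;p130 DKO over p130 KO, 2 for TKO over wild type, 1 for TKO over Rb1;p130 DKO, and 0 for Rb1 KO over wild type and TKO over Rb1;p107 DKO. For p107;p130 DKO over p130 KO the count of 3 was 1 with the Xist block. Leaving out 1 array gave 240 to 337 for the Rb1 term, 69 (without TKO array 4) to 335 (without Rb1;p130 DKO array 9) for the p107 term (moved by over 1.5 times also by wild type 1 and 2, Rb1 KO 1 and 2, p107;p130 DKO 5 and 6, Rb1;p107 DKO 1 and 5, Rb1;p130 DKO 1 and 5, and TKO 2 and 6), 2 to 3 for the p130 term, 28 (without p107;p130 DKO array 2, and up to 32 without its array 3 or 5 or TKO array 2) to 52 for TKO over p107;p130 DKO, 7 (without p130 KO array 1 or 2, and 9 without array 3) to 17 for Rb1;p130 DKO over p130 KO, 4 (without wild type array 2) to 12 for TKO over wild type, 0 (without wild type array 2) to 4 (without Rb1 KO array 1) for Rb1 KO over wild type, 2 to 8 (without Rb1;p130 DKO array 9) for TKO over Rb1;p130 DKO, and 1 (without p130 KO array 3) to 4 for p107;p130 DKO over p130 KO. Without arrays 8 and 9 of the Rb1;p130 DKO the p107 term called 479. Few arrays in the Rb1 KO, p130 KO and wild type groups limit what their comparisons can show.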
